A study of Mus musculus with 2 samples.

Results

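The genes described are 6 keratins of simple epithelium, Krt8 and Krt7 of type II and Krt18, Krt19, Krt20 and Krt23 of type I. They were chosen by symbol, as the listed keratin genes with a row in the deposited table of 12631 gene rows, and all 6 had a row. The study profiled RNA from mouse intestinal epithelium by sequencing, in 1 library of the genotype Myh9-/- and 1 of a wild type control. Both were C57BL/6 mice aged 8 weeks, both received tamoxifen on 5 days, and RNA was taken from small intestinal epithelial cells at day 5. The cells had been shaken off intestinal pieces with EDTA and dithiothreitol in the cold. The sources used here give neither the deleted exons nor the driver of the tamoxifen-induced deletion. The comparison addresses how the epithelial transcriptome differs once Myh9, the heavy chain gene of non-muscle myosin IIA, has been deleted. Each group holds 1 sample, so no value has a replicate error, no test was possible, and every difference is between these 2 libraries.

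Keratins are the intermediate filament proteins of epithelial cells. A filament forms from pairs of 1 type I and 1 type II chain, so neither type assembles alone. The filaments run through the cytoplasm and are anchored at desmosomes between cells and at hemidesmosomes on the basement membrane, where they give the epithelial sheet its resistance to mechanical stress. Keratin 8 is the main type II chain of the intestinal epithelium and pairs with keratins 18, 19 and 20. In some strains, mice that lack keratin 8 develop colonic hyperplasia and colitis.

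Levels are deposited expression values from which the 1 that the authors added was removed. The sources used here give neither their unit nor the sequencing depth, so levels are compared between libraries for the same gene. Where levels of a list are summed, or genes are matched on mean level, gene length is not taken into account. Folds are knockout over control on the scale of level plus 1, which understates differences of low genes. The 12152 rows whose larger level reached 1 were included. Genes were counted as higher or lower from a difference of 1.4-fold, the size stated in the labels, and otherwise as inside the 1.4-fold lines. The listed levels summed to 634492 in the knockout and 671114 in the control, and mitochondrial-genome transcripts made up 6.78% of the knockout sum and 9.11% of the control sum. Myh9 itself was 13.6 in the knockout and 99.5 in the control. All 8 pan-epithelial markers were included, with Epcam, an epithelial adhesion molecule, at 633 in the knockout and 680 in the control.

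The 6 genes lie in the keratin clusters of chromosomes 11 and 15. On mm10, Krt7 spans chr15:101411043-101430313 on the plus strand, Krt8 spans chr15:101996698-102004482 on the minus strand and Krt18 spans chr15:102028180-102032027 on the plus strand. Krt8 and Krt18 are thus divergent neighbours whose annotated starts are 23.7 kb apart. Krt18 is the 1 type I gene that sits in the type II cluster. On chromosome 11, all on the minus strand, Krt20 spans chr11:99428403-99438150, Krt23 chr11:99477974-99493137 and Krt19 chr11:100140810-100148665. Myh9 also lies on chromosome 15, 23.6 Mb from Krt7. Of 449 included genes on chromosome 15, 18.3% were at least 1.4-fold higher, against 15.1% of 997 on chromosome 11.

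The sequences upstream of the 4 keratins that were higher in the knockout, and of Krt8, the neighbour of Krt18 whose level was close to equal, are shown so that the starts of genes that differed and of one that hardly did can be read side by side. They come from RefSeq on GRCm38.p6, in which 5 of the 6 genes matched by symbol, the other being Krt19. Each runs 5′ to 3′ on the strand of its gene, from 250 bases before the RefSeq start to that start or to the base before the first annotated coding-transcript exon. They cover chr15:102027966-102028179 for Krt18, chr15:102004483-102004592 for Krt8, chr15:101412153-101412401 for Krt7, chr11:99493138-99493370 for Krt23 and chr11:99438154-99438403 for Krt20. Capitals mark matches, on either strand, to 4 of the motifs searched, those of Sp1/KLF, TEAD and CDX factors and the TATA box, whose letters are given after the sequences. The Krt7 stretch overlaps annotated exons of a noncoding Krt7 transcript and of the antisense gene Gm671.
Krt18: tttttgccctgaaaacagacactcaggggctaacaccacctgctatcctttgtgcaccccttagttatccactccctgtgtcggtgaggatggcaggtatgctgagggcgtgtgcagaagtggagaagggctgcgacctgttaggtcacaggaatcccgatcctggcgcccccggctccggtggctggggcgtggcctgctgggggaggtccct
Krt8: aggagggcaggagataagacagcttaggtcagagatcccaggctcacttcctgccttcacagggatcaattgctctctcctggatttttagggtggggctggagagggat
Krt7: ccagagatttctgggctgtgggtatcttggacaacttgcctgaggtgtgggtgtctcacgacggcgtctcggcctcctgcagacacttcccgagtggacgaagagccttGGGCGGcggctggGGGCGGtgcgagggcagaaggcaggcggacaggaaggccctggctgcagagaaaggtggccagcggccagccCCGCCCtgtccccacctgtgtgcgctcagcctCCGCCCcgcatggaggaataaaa
Krt23: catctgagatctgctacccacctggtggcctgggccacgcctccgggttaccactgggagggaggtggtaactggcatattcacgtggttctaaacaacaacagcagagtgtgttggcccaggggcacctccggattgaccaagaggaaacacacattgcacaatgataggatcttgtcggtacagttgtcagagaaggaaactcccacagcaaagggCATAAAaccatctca
Krt20: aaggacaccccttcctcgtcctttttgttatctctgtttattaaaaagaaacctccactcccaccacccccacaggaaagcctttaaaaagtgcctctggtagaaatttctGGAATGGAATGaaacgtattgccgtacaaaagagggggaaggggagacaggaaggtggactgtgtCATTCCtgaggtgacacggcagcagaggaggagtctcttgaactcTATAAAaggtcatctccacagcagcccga

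Matches and base composition were counted over the whole 250 bases before each RefSeq start, which run on past the bases printed into the first annotated exon for all but Krt20. Printed are 110 bases for Krt8, 214 for Krt18, 233 for Krt23 and 249 for Krt7. None of the 4 capitalised motifs was found in more than 1 of the 5 windows. Krt7 held 4 matches to the Sp1/KLF motif GGGCGG, which 32.7% of 32851 RefSeq windows of 250 bases hold at least once. Krt20 held 3 matches to the TEAD motif GGAATG, of which the first and second share 1 base, against 12.6% of windows with any. It also held 1 TATA box (TATAAA), found in 12.4% of windows. Krt23 held 1 match to the CDX motif TTTATG on the opposite strand, found in 10.8% of windows. No match to these 4 motifs, nor to the AP-1 motif TGANTCA that 6.75% of windows hold, was found in the windows of Krt18 or Krt8. The E-box CANNTG, which 66.2% of windows hold and which is not capitalised, matched 4 times in the Krt23 window, 2 times in that of Krt8 (1 of them in the printed stretch), 1 time each in those of Krt7 and Krt18, and not in that of Krt20. G and C made up 66.0% of the Krt7 window, 60.4% of that of Krt18, 58.0% of that of Krt8, 52.8% of that of Krt23 and 48.0% of that of Krt20, where the median window had 52.4%. A match is a string of letters and does not show that a factor binds there.

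Of the 6 keratins, 4 were higher in the knockout by 1.4-fold or more (Krt23, Krt7, Krt18 and Krt20), none was lower, and Krt8 and Krt19 lay between the 1.4-fold lines. Among all included genes, 15.9% were at least 1.4-fold higher and 16.3% at least 1.4-fold lower. The median log2 fold of the 6 keratins was 0.73, beside -0.0037 over all included genes. All 6 were above the minimum level of 1 in both libraries, so none entered through 1 library alone. In bulk RNA, a larger share of cells that express a keratin and more of its RNA per cell cannot be told apart.

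**Figure D1:**
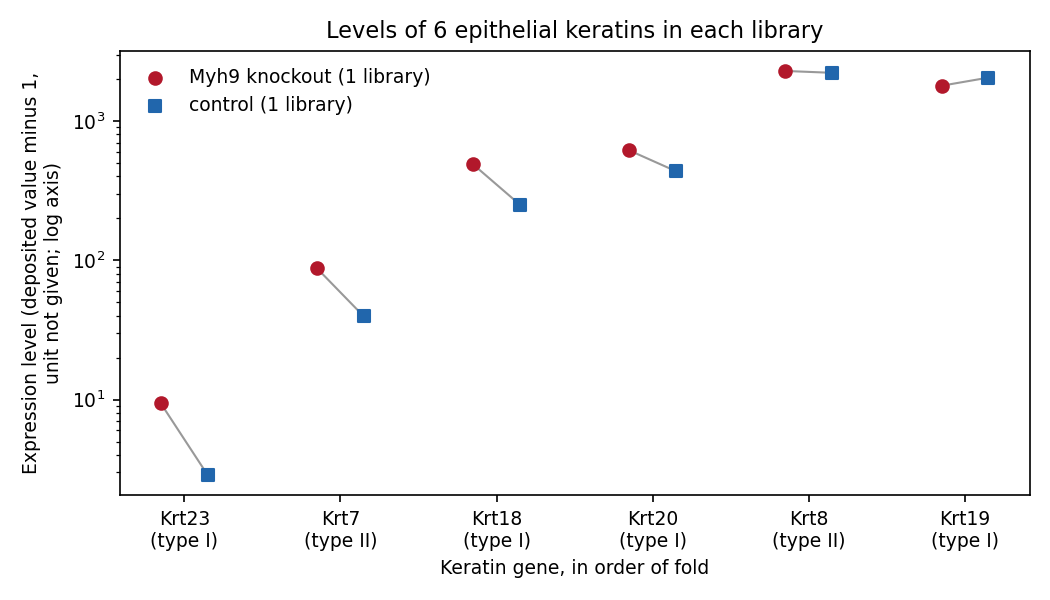
Level of each keratin in the knockout library (red circle) and the control library (blue square), 1 library each, on a log axis; genes are ordered by fold and keratin type is given under each name. Krt23, Krt7, Krt18 and Krt20 lie higher in the knockout, Krt8 is nearly level at 2286 in the knockout and 2217 in the control, and Krt19 lies lower at 1791 in the knockout against 2048 in the control; heights of different genes are not comparable because the unit is not given.

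Krt8, the type II chain on which the intestinal filaments depend, was 2286 in the knockout and 2217 in the control. That is a fold of 1.03 and a log2 fold of 0.04, and 45.8% of included genes had a log2 fold at least as large. Krt7, the other type II gene, is known from ducts, glands and the lining of the bladder. It was 87.5 in the knockout and 39.5 in the control, 2.18-fold higher, with a log2 fold of 1.13 that placed it 424th of 12152 included genes, counted from the highest log2 fold. The 2 type II genes thus differed from each other, since the Krt7 level divided by the Krt8 level was 2.15 times as large in the knockout as in the control, a ratio in which gene length cancels.

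Krt18, the classical type I partner of keratin 8, was 488 in the knockout and 250.3 in the control. It was 1.95-fold higher, a log2 fold of 0.96, and stood 608th of the included genes. Its neighbour and partner Krt8 differed by 1.03-fold, and the Krt18 level divided by the Krt8 level was 1.89 times as large in the knockout as in the control. Krt19, the smallest keratin, which lacks most of the tail domain and is made in crypts and villi, was the 1 member with a lower level in the knockout, 1791 against 2048 in the control. This was a fold of 0.874, a log2 fold of -0.19, inside the 1.4-fold lines. The Krt18 level divided by the Krt19 level was 2.23 times as large in the knockout as in the control.

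Krt20, a type I keratin of differentiated villus cells, was 615 in the knockout and 435 in the control. Its fold of 1.41 lay just past the 1.4-fold line, and a knockout level lower by 0.776% would have put it inside. It stood 1875th by log2 fold. Relative to Krt19, the Krt20 level was 1.61 times as large in the knockout as in the control. Krt23, a type I keratin known from the ductular reaction of injured liver in mouse and human, had the largest fold of the 6, 9.37 in the knockout and 2.87 in the control. It was 2.68-fold higher on level plus 1 and 3.27-fold higher without the added 1, and it stood 240th. At 2-fold, Krt23 and Krt7 were past the line, where 4.49% of included genes were.

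**Figure D2:**
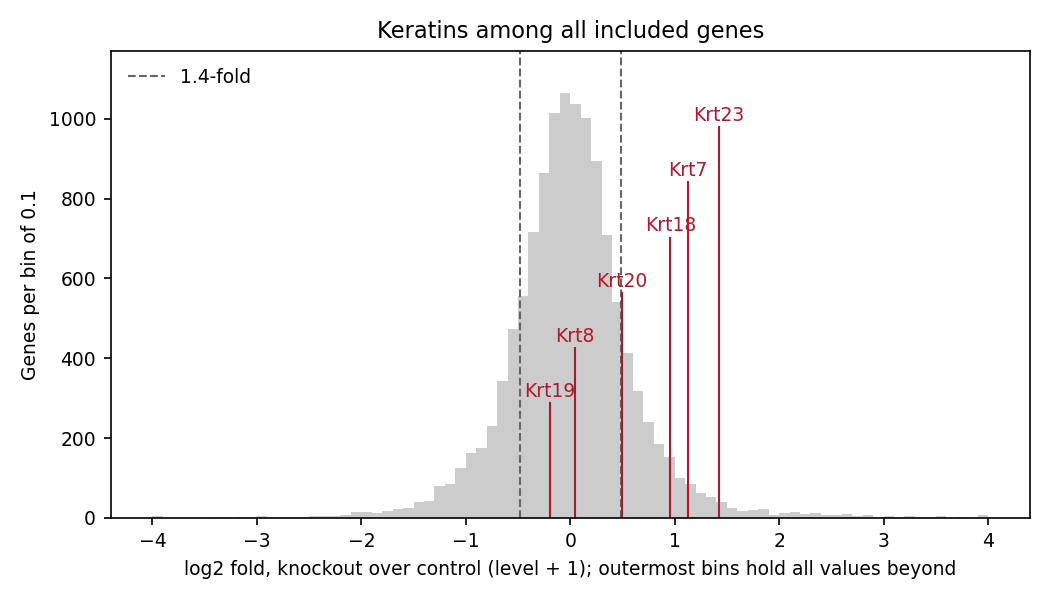
Histogram of log2 folds (knockout over control, level plus 1) over 12152 included genes, in bins of 0.1, with a red line at each keratin and dashed lines at 1.4-fold. Krt19 at -0.19 and Krt8 at 0.04 fall in the bulk of genes, Krt20 at 0.50 falls at the upper dashed line, and Krt18 at 0.96, Krt7 at 1.13 and Krt23 at 1.42 fall in the upper flank.

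The folds of the 6 genes moved little with the scaling of the libraries. When both libraries were set to one sum of levels, counted without the 20 most abundant genes and the mitochondrial genome, the knockout was multiplied by 1.08. Over all included genes this gave 2455 higher and 1552 lower, where the levels as deposited gave 1936 higher and 1985 lower. Under it Krt8 had a log2 fold of 0.16, Krt19 of -0.08, Krt20 of 0.61, Krt18 of 1.07, Krt7 of 1.24 and Krt23 of 1.52. The same 4 genes were past 1.4-fold, where 20.2% of included genes were higher. Multiplying the knockout by more than 1 could not have brought any of the 4 below that line.

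**Figure D3:**
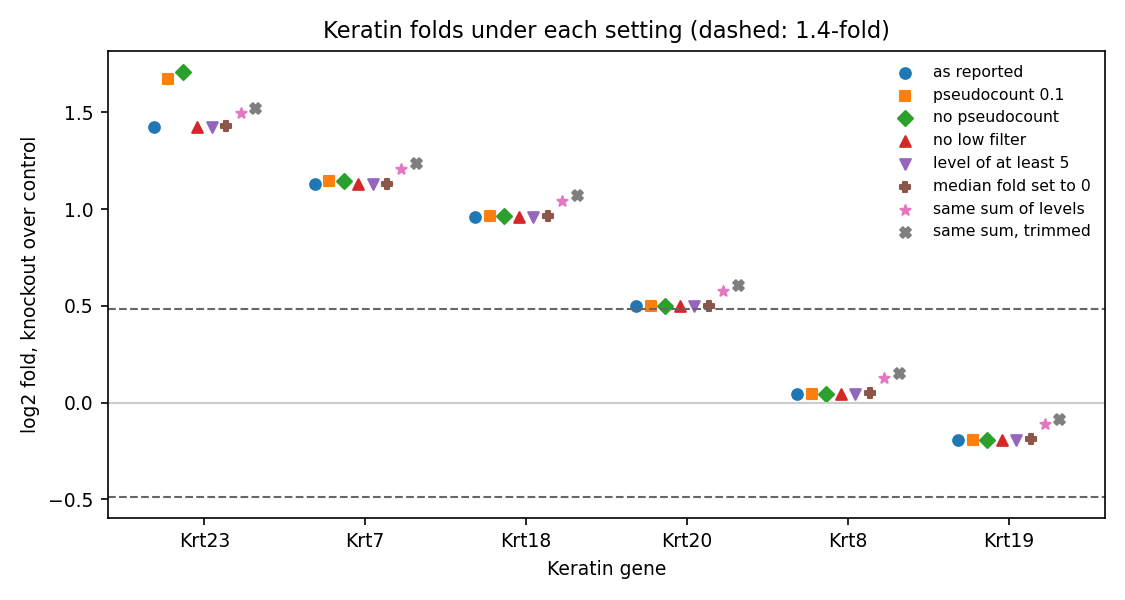
Log2 fold of each keratin (knockout over control) under the reported setting and 7 alternatives, with dashed lines at 1.4-fold. Krt20 stays between 0.50 and 0.61, just above the upper line, Krt23 ranges from 1.42 to 1.71 and is highest without a pseudocount, and Krt8 and Krt19 stay between the lines. No setting could lower the fold of a keratin that was higher in the knockout.

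Few other keratins were listed. Of 53 protein-coding keratin genes named in the annotation, 9 had a row and 44 had none. The 3 rows beyond the 6 genes described had levels under 2 in both libraries, with the larger one in the knockout. Krt15, a type I keratin of basal and progenitor cells in stratified epithelium, was 1.56 in the knockout and 0.182 in the control. Krt83, a type II hair keratin gene, was 1.13 in the knockout and 0.224 in the control. Krt36, a type I hair keratin gene listed at 0 in the control, was 0.869 in the knockout and did not reach the minimum level. Krt15 and Krt83 passed the filter only through the knockout library, which fixed their direction. None of the 9 squamous markers, among them Krt5, Krt14, Krt4 and Krt13, had a row.

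Copies of a gene can share reads with it where their sequences are nearly identical, and pseudogene matches were found for Krt8 and Krt18. The processed pseudogene Krt8-ps on chromosome 7 matched the Krt8 transcript at 98.6% over 941 bases, and it had a row at 2.80 in the knockout and 2.34 in the control. The pseudogenes Gm5200 and Gm17847 matched Krt18 at 90.5% and 86.5% over 1267 and 1065 bases and had no row. No other annotated transcript matched a member at 85% or more over at least 500 bases. Antisense or opposite-strand genes overlap the first part of Krt7 (Gm671) and of Krt8 (Gm36026), both without a row, and the sources used here do not say whether reads were counted by strand.

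Included genes within 100 kb that are not keratins lay only beside Krt8 and Krt18, and they were lower or inside the lines. The higher neighbours were members described here, or Krt15 and Krt83. So few rows cannot show a pattern particular to keratins. Within 100 kb of Krt8 or Krt18, the translation factor gene Eif4b was 91.0 in the knockout and 125 in the control. Tns2, which encodes the focal adhesion protein tensin 2, was 1.17 in the knockout and 2.15 in the control, past the line downward, and Spryd3 was 15.6 in the knockout and 14.7 in the control. On chromosome 11, Krt20 and Krt23 are themselves neighbours 39.8 kb apart, and both were higher. The 2 rows near Krt19 were Krt15 and Krt36, and the row near Krt7 was Krt83. Krt15 and Krt83 passed the filter only through the knockout, and Krt36 was not included.

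Among genes of plakins, desmosomes and hemidesmosomes, not all of which bind keratins, more were higher than lower. Of 18 genes of plakins, desmosomes and hemidesmosomes, 16 were included, 5 were at least 1.4-fold higher, 11 lay inside the lines and none was lower. The median log2 fold of the 16 was 0.31, beside -0.0037 over all included genes. The 5 higher genes were 31.25% of the 16, beside 15.9% of all included genes. Ppl, which encodes periplakin, a cytolinker that binds keratins 8 and 18, was 7.41 in the knockout and 2.27 in the control. Macf1, a spectraplakin that links actin to microtubules, was 15.5 in the knockout and 6.16 in the control. Plec, which encodes plectin, the linker of keratins to hemidesmosomes and actin, was 54.2 in the knockout and 35.0 in the control. Dsp, which encodes desmoplakin, the anchor of keratins at desmosomes, was 66.2 in the knockout and 79.5 in the control, inside the lines. The listed genes Dsg2, Dsc2, Jup, Pkp1, Pkp2 and Pkp3 also lay inside the lines. Pkp4, by contrast, was 89.1 in the knockout and 45.5 in the control. Of the hemidesmosome integrin genes, Itga6 was 80.7 in the knockout and 54.2 in the control, whereas Itgb4 was 71.2 in the knockout and 82.1 in the control, inside the lines.

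Of 17 genes whose products bind, modify or cleave keratins, 3 were higher, 14 lay inside the lines and none was lower. The 3 are 17.6% of the list, near the 15.9% of all included genes. The list's median log2 fold was 0.22, and 1 of them passed the filter only through the control. The list holds 7 genes of the 14-3-3 family, adaptors of which some bind phosphorylated keratin 18, and 4 of the 7 lay inside the lines. The other 3 were the genes counted as higher. Sfn was 90.0 in the knockout and 50.5 in the control, Ywhag was 29.2 in the knockout and 17.4 in the control, and Ywhaz was 157 in the knockout and 107 in the control. Casp6, the gene of a caspase that cleaves keratin 18 during apoptosis, was 73.0 in the knockout and 102 in the control, inside the lines.

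Among other intermediate filament genes, 6 of 16 had a row and 5 were included, of which 1 was higher, 1 lower and 3 between, with a median log2 fold of -0.22. Lmna, the gene of the nuclear lamins A and C, was 149 in the knockout and 92.8 in the control, and the lens filament gene Bfsp1 was 2.92 in the knockout and 6.56 in the control. Vim, the gene of the mesenchymal filament protein vimentin, was 12.2 in the knockout and 14.6 in the control. Of 12 included epithelial transcription factor genes, 3 were higher, 2 lower and 7 between, with a median log2 fold of -0.08. Klf4, a factor of differentiated epithelial cells, was 51.3 in the knockout and 34.2 in the control, and Grhl2 was 7.38 in the knockout and 4.78 in the control. Cdx2, the intestinal identity factor, was 53.8 in the knockout and 82.9 in the control, and Gata4, a factor of the proximal small intestine, was 43.8 in the knockout and 63.3 in the control. Gata4 moved inside the lines when both libraries were set to one sum of levels.

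**Figure D4:**
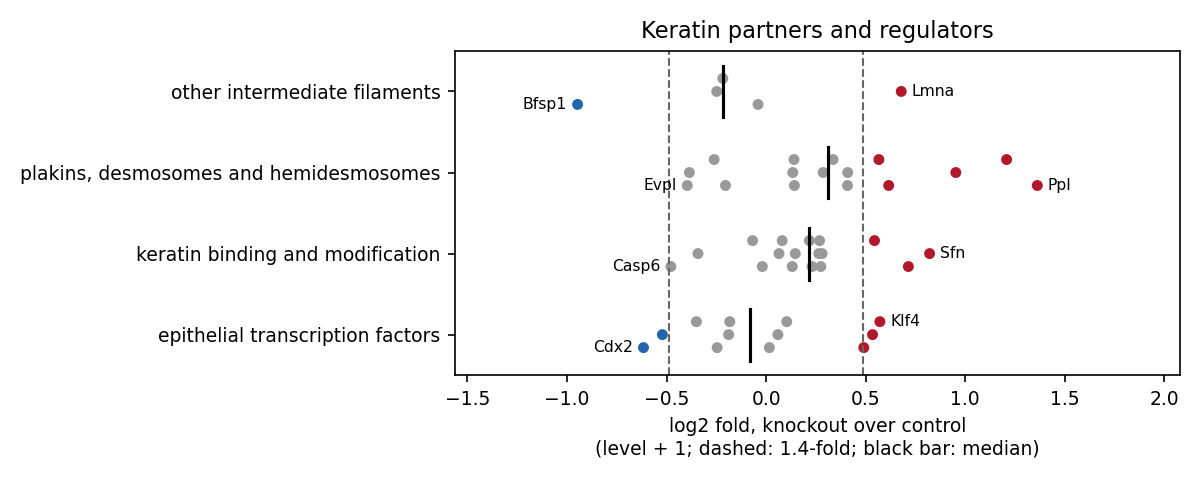
Log2 fold of each included gene in 4 lists (rows), with the extreme genes named, dashed lines at 1.4-fold and a black bar at the list median. Points past the lines are red where higher and blue where lower in the knockout. The medians are 0.31 for plakins, desmosomes and hemidesmosomes, 0.22 for keratin-binding genes, -0.08 for transcription factors and -0.22 for other intermediate filaments.

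Markers of cell types that carry particular keratins differed between the libraries too, and their part in the keratin differences was not tested. Beside Krt20, 6 of 10 villus tip markers were higher, 4 lay inside the lines and none was lower. Over all included genes, 15.9% were higher. The median log2 fold of the 10 markers was 0.56, and their summed level was 469 in the knockout and 311 in the control. The broader enterocyte markers split into 2 of 12 higher, 3 lower and 7 between, and their median was 0.0024. Of the villus tip list, Fos and Junb also respond to handling, and Klf4 was also counted among the transcription factors. Of the others, the nuclear RNA gene Neat1 was 48.0 in the knockout and 21.5 in the control and the ectoenzyme gene Enpp3 was 49.6 in the knockout and 25.7 in the control. Inside the lines lay Creb3l3, Ada, Nt5e and Egfr. Ada was 37.9 in the knockout and 36.9 in the control. Nt5e was 1.21 in the knockout and 1.63 in the control, and Egfr was 8.72 in the knockout and 12.1 in the control.

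Tuft cells stain strongly for keratin 18, and tuft markers were lower in the library in which Krt18 was higher. Of 10 genes, 7 were included, of which 6 were lower and 1 lay inside the lines. Their summed level was 10.9 in the knockout and 25.6 in the control, and Dclk1 was 0.301 in the knockout and 4.26 in the control. Of the 7, 2 were included only through the control. Goblet cell markers, with 4 of 8 lower and none higher, summed to 8086 in the knockout and 11819 in the control. Enteroendocrine markers went the other way, with 5 of 8 higher and 1 lower and sums of 316 in the knockout and 263 in the control.

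Mesothelium, the lining of the gut's outer surface, makes keratins 7, 8, 18 and 19. Of its 7 markers, 5 were included, none was higher and 3 were lower, and 2 of the 5 were included only through the control. They summed to 7.31 in the knockout and 10.3 in the control, while Wt1 and Bnc1 had no row. No marker of stomach or pancreas and no endothelial marker had a row. Stromal and muscle markers summed to 29.8 in the knockout and 26.6 in the control, with 4 of 7 higher. Of these 4, 3 (Lum, Tagln and Acta2) were included only through the knockout, which fixed their direction. The remaining higher gene, Col3a1, was 8.18 in the knockout and 4.25 in the control. Dcn, Col1a1 and Col1a2 lay inside the lines. The median log2 fold of the 7 was 0.57, the value of Lum, so the filter bears on it. Dcn was 11.7 in the knockout and 15.7 in the control, and the other 6 summed to 18.1 in the knockout and 10.9 in the control.

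Beside Krt7 and Krt23, all 13 included of 16 regeneration-associated genes were higher, of which 4 were included only through the knockout, with a median log2 fold of 2.66. This list was chosen with its direction in these libraries known. Its summed level was 368 in the knockout and 32.5 in the control. Of 10 crypt stem cell markers, 5 were lower and 5 lay inside the lines, and they summed to 201 in the knockout and 759 in the control. Olfm4, a stem cell marker at 113 in the knockout and 619 in the control, made up most of both sums, and the other 9 summed to 88.4 in the knockout and 140 in the control. The ileal genes went both ways. Fabp6, an ileal bile acid binding protein gene, was 741 in the knockout and 125 in the control, whereas Cubn, the gene of the vitamin B12 receptor cubilin, was 4.05 in the knockout and 25.7 in the control. The part of intestinal region in the keratin values was not tested.

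**Figure D5:**
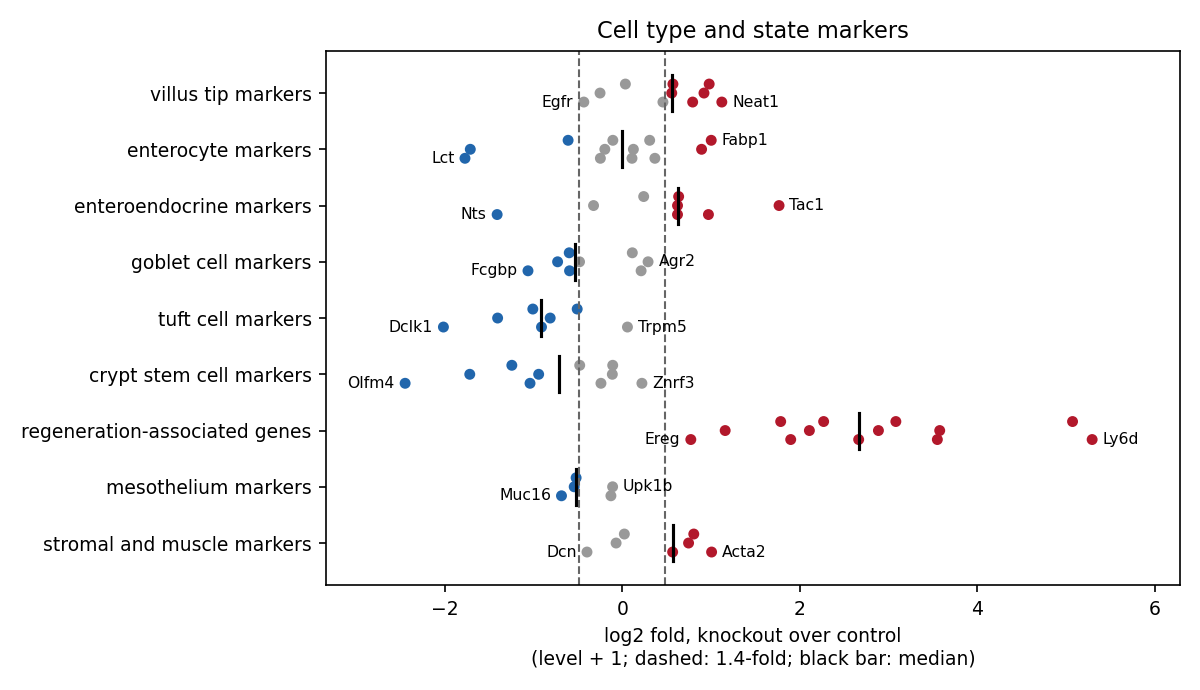
Log2 fold of each included marker gene in 9 lists (rows), with the extreme genes named, dashed lines at 1.4-fold and a black bar at the list median. Villus tip, enteroendocrine, and stromal and muscle medians lie above the upper line. The stromal and muscle median is the value of Lum, 1 of 3 genes in that row included only through the knockout, which fixed their direction. Tuft, goblet, crypt stem cell and mesothelium medians lie below the lower line. Of the tuft genes 2, and of the mesothelium genes 2, were included only through the control, which fixed their direction and bears on those medians. All 13 regeneration-associated genes lie above the upper line, and no mesothelium marker does.

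For each keratin, the gene with the closest log2 fold was sought among included genes whose mean level was within 2-fold of its own. With 2 libraries this is likeness in a single fold. The closest to Krt18 among 351 genes was Mif, a cytokine gene, at 488 in the knockout and 258 in the control. The closest to Krt7 among 1856 was Id1, at 145 in the knockout and 65.9 in the control, and the closest to Krt23 among 3578 was Ass1, the argininosuccinate synthase gene, at 16.8 in the knockout and 5.66 in the control. Aldoa, an aldolase gene, was closest to Krt20 among 247, at 555 in the knockout and 392 in the control. Slc25a5, a mitochondrial nucleotide carrier gene, was closest to Krt8 among 50, at 1134 in the knockout and 1118 in the control. Anpep, the brush border aminopeptidase gene, was closest to Krt19 among 69, at 2324 in the knockout and 2662 in the control.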

How the data were processed

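RNA of 2 mouse samples was sequenced. Per the submitters' processing notes, HISAT2, StringTie and the mouse build mm10 were used, with no version or role stated. The authors deposited 1 signal value per gene and sample, an expression level of unstated unit with 1 added: no value was below 1. The deposited fold ratio was the knockout value divided by that of the control, to within 1.22e-07. Columns were tied to samples by animal numbers found both in the table and in the sample titles. Genes low in both libraries had no row, by a filter that the sources used here do not state. Depth is unknown, so no counting interval is given.

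The size rule (pseudocount 1, larger level of at least 1, 1.4-fold) was run on simulated levels of known fold to test the code, which says nothing of its error in these libraries. Named genes were the members, Myh9, other keratins, up to 2 genes per direction past 1.4-fold in each list, genes that define a list or touch keratins by role, neighbours within 100 kb, and the gene of closest fold. Tns2, Spryd3, Krt15, Krt36, Krt83, Eif4b, Gm671, Gm36026, Gm5200, Gm17847 and Krt8-ps came from family, position or sequence searches. Hspb1 was named after its values were seen. The members and lists were chosen with earlier results of these data known. Gene positions came from GENCODE M21, upstream sequences from the RefSeq table, searched for 6 motifs on both strands, and transcript matches from BLAST+ 2.17.0. Python 3.11.15, numpy 2.4.6 and pandas 2.3.3 were used. Alternatives were other pseudocounts, filters, thresholds and scalings. Some listed genes are not reported here.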

Additional observations from a re-analysis of the deposited data

How the results depend on the processing

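The log2 folds of the 6 keratins kept their direction and their side of the 1.4-fold line under all 7 alternatives run on them (2 pseudocounts, 2 filters and 3 scalings). For the 4 higher keratins this was fixed in advance and lends no support. Each scaling multiplied the knockout by more than 1, the smaller pseudocounts enlarge any fold that exceeds 1, and the filters leave folds unchanged. At a 2-fold line, 2 keratins were higher, as were 1 other keratin and 2 genes of plakins, desmosomes and hemidesmosomes. At that line, 0 keratin-binding genes, 0 transcription factors and 0 other intermediate filaments were higher. Of transcription factors 0 were lower, and of other intermediate filaments 0. Over all genes, 546 were higher and 520 lower at 2-fold. With a level of at least 5, 1284 of 8566 genes were lower, beside 1985 of 12152 at the reported filter. No other keratin was then left to count. Under both scalings to a common sum, 1 transcription factor was lower in place of 2, as Gata4 then lay inside the lines. With a pseudocount of 0.1 or none, 1 keratin-binding gene was lower, the small heat shock protein gene Hspb1, at 0.615 in the knockout and 1.05 in the control. No paired analysis was possible because each group holds 1 sample, and no replicate could be left out. The log2 fold of Krt23 ranged from 1.42 to 1.71 with the pseudocount. The depth is unknown, and no error can be set on any fold.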

Other observations

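Lists that bear less directly on the keratins also differed between the libraries. Of 8 Paneth cell markers 7 were lower and none was higher, at a median log2 fold of -0.97. T cell and intraepithelial lymphocyte markers were lower in 7 of 8 cases, with sums of 451 in the knockout and 983 in the control. B and plasma cell markers were higher in 3 of 4 included cases, and macrophage markers in 2 of 4 with 1 lower, where 1 of the 2 was included only through the knockout and the lower one was inside the lines under both scalings to a common sum. None of 8 proliferation markers passed 1.4-fold, with a median log2 fold of 0.26, but 2 were higher when both libraries were set to one sum of levels and 3 when the most abundant genes and the mitochondrial genome were left out of that sum. Of 9 included handling response genes 4 were higher, and both included red blood cell genes were higher. Of the 4 ileum markers 2 were higher, 1 of them included only through the knockout, and 1 was lower. Of the 8 pan-epithelial markers 1 was higher and none lower, and that gene was Cldn4, a tight junction claudin, at 30.9 in the knockout and 12.9 in the control.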
